A study of Gallus gallus with 9 samples.

Results

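*MITF* and *OTX2*, a pair of transcription factor genes that define the retinal pigment epithelium (RPE), were followed through each library of a chick RPE reprogramming experiment. They were taken by gene symbol, which matched 1 row each (*MITF*, ENSGALG00000039583, and *OTX2*, ENSGALG00000034889), so they are 2 of the 16635 genes measured. Reads on each gene were summed over all its transcripts. The isoforms of *MITF*, which start from different promoters, are therefore not separated, and since the reads were counted as unstranded, those from an overlapping antisense transcript cannot be told apart from those of the gene.

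RPE was captured by laser from sections of *Gallus gallus* embryos, and poly-A RNA was sequenced in 9 libraries. All were White Leghorn chickens operated on, or taken intact, at embryonic day 4 (E4), and no transgene is stated for any group. The RPE group (n = 3) was intact, with the neural retina in place. The transiently reprogrammed RPE (t-rRPE, n = 3) was collected 6 h after retinectomy, the surgical removal of the neural retina, with no added factor. The reprogrammed RPE (rRPE, n = 3) was collected 6 h after retinectomy and placement of a bead soaked in fibroblast growth factor 2 (FGF2). Each library comes from 1 embryo, so replicates differ in the embryo, the dissection and the captured cells. The bead and the added FGF2 were not separated by a control bead in these libraries. According to the paper, rRPE was captured only close to the bead, and no such limit is stated for t-rRPE. The captured position thus cannot be told apart from FGF2 between these groups. For the intact RPE no collection time is stated beyond E4, and no intact group kept for a further 6 h is described. Development over those 6 h thus cannot be told apart from retinectomy.

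MITF is a basic helix-loop-helix leucine zipper protein that binds E-box and related motifs, and it drives the genes of pigment granules as well as the specification of the RPE. OTX2 is a homeodomain protein that is present early in the whole optic vesicle and stays on in the RPE, where it acts with MITF on pigment genes. In the optic vesicle the neural retina domain is set apart under FGF signaling, and MITF is lost from it there. In the chick, an RPE exposed to FGF2 shortly after retinectomy can give rise to a neural retina, whereas injury alone does not complete this change.

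The 9 libraries held 26167206 to 45563924 reads on genes, and 13327 to 14077 genes had at least 1 read. *MITF* was covered by 1179 to 7620 reads per library and *OTX2* by 6599 to 18245. Counting error was thus 1.15 to 2.91% for *MITF* and 0.74 to 1.23% for *OTX2*, below the spread between libraries. It leaves out noise from capture and cDNA amplification, which cannot be told apart from differences between embryos with 1 library each. Of 11 RPE markers, the pigment genes *PMEL*, *TYR*, *TYRP1* and *DCT*, and *RLBP1*, were abundant in every library and made up most of the summed level. *TTR* was at 0 to 12.3 normalized counts in RPE. In rRPE against RPE 4 of the 11 were lower and 2 higher without overlap, beside 8.94 and 9.71% of all genes. The summed level of the 11 markers was 328435 to 378125 normalized counts in RPE, 319755 to 447019 in t-rRPE and 250609 to 410370 in rRPE, so the 3 groups overlapped. The summed level of lens markers stood apart, at 869 to 1228 normalized counts in RPE, 47732 to 402892 in t-rRPE and 21782 to 49994 in rRPE. *ASL1* made up most of that sum in every library after retinectomy. On all genes, 6 libraries were most like another library of their own group, and the other 3, the t-rRPE libraries, were each most like an rRPE library.

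*MITF* was at 3911.2, 5933.3 and 5855.4 normalized counts among RPE (replicates 1, 2 and 3), 1548.4, 2885.6 and 2094.5 among t-rRPE and 1440.6, 1908.3 and 1210.5 among rRPE embryos. A normalized count is the number of reads divided by a size factor of the library, so it corrects for depth but not for gene length. Every library taken after retinectomy was below every intact library, and the t-rRPE and rRPE libraries overlapped. From an intact mean of 5233.3 ± 1145.7 (SD, n = 3), *MITF* stood at 2176.2 ± 672.3 after injury alone and at 1519.8 ± 355.6 after injury with FGF2, or 41.6% and 29.0% of the intact mean. The SD between libraries of a group was 21.9 to 30.9% of the mean, against 4.4 to 16.1% for *OTX2*.

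*OTX2* was at 14484.9, 13268.2 and 14020.0 normalized counts among RPE, 19274.5, 16383.1 and 18521.0 among t-rRPE and 9273.0, 6892.6 and 9248.3 among rRPE embryos. The 3 groups did not overlap, with t-rRPE above RPE and RPE above rRPE. Their means were 13924.4 ± 613.9, 18059.5 ± 1499.9 and 8471.3 ± 1367.3, so t-rRPE stood at 129.7% and rRPE at 60.8% of the intact mean. This order with no overlap was held by 18 of the 16535 genes tested (0.109%), and the opposite order, rRPE above RPE above t-rRPE, by 24 genes (0.145%). In bulk RNA of captured tissue, fewer cells of a type and less RNA per cell cannot be told apart, for *OTX2* as for *MITF*.

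**Figure D1:**
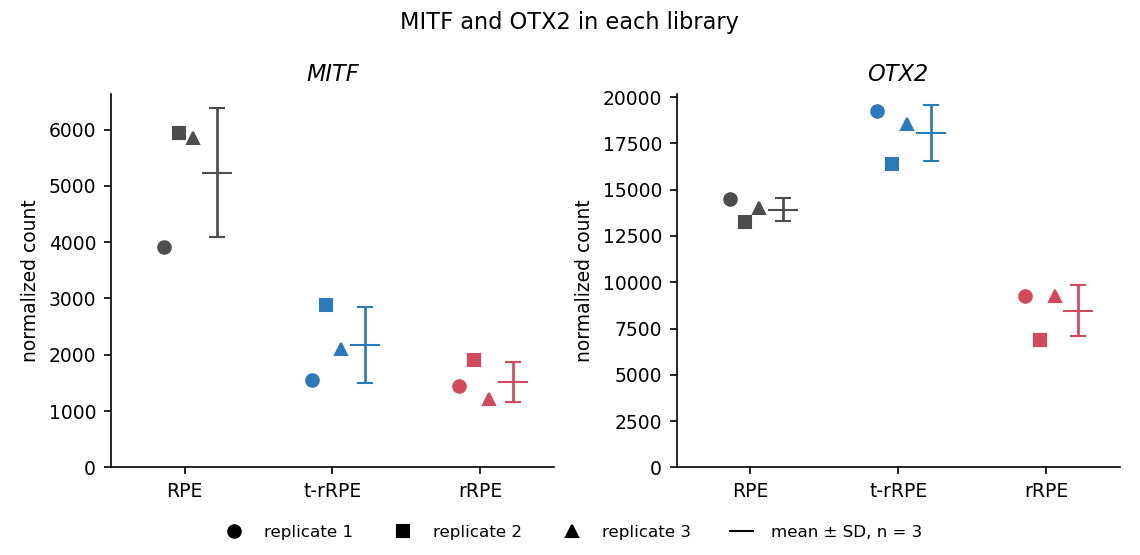
Normalized counts of *MITF* (left) and *OTX2* (right) in each library, with both axes from 0. Points are the 9 embryos, shaped by replicate number, and the bars beside them give mean ± SD (n = 3): *MITF* was lower in all 6 libraries after retinectomy, whereas *OTX2* was highest in t-rRPE (16383.1 to 19274.5) and lowest in rRPE (6892.6 to 9273.0).

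Over all 9 libraries, the 3 conditions took up 0.922 of the sum of squares of *OTX2* on the log2 scale (exact permutation test over 280 partitions, p = 0.00357, the smallest that the design can give). For *MITF* this share was 0.856 (exact permutation test, p = 0.00714). These tests ask only whether the 3 groups differ somewhere, and each gene was one of 3 measures tested in this way.

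Injury alone, together with the 6 h that followed it, was addressed by t-rRPE against RPE. Changes are log2 fold changes of log2(normalized count + 1), and a gene was called at an adjusted p (limma, Benjamini-Hochberg over 16535 genes) of at most 0.05 with a log2 fold change of at least 1 in either direction, which 0.671% of genes met here. All 3 t-rRPE libraries lay below all 3 intact ones for *MITF*, as for 7.83% of genes. The log2 fold change of *MITF* was -1.29 (SE 0.28, 95% interval -1.90 to -0.68), or 0.41 of the intact level, with an unadjusted p of 0.000704 and an adjusted p of 0.0742, so it was not called. *MITF* was called here by DESeq2 on recovered reads (log2 fold change -1.27, adjusted p = 0.00112) and not by edgeR (adjusted p = 0.102). Among the 5828 well covered genes, those with a mean of at least 1000 normalized counts, 1.18% were at least as far below the intact level as *MITF*.

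The same comparison for *OTX2* gave a log2 fold change of 0.37 (SE 0.15, 95% interval 0.05 to 0.69) and an adjusted p of 0.336, which was not called. All 3 t-rRPE libraries were above all 3 intact ones, a separation that 7.32% of genes showed in this direction. Of the well covered genes, 17.1% were at least as far above the intact level as *OTX2*.

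Injury with FGF2, together with the 6 h that followed it, was addressed by rRPE against RPE, which shares its intact libraries with the comparison above. *MITF* fell by 1.78 on the log2 scale (SE 0.28, 95% interval -2.40 to -1.17, adjusted p = 0.014), or to 0.291 of the intact level. It was called, as were 1.03% of genes in either direction and 0.351% downward, and 0.48% of the well covered genes were at least as low. The call was lost without RPE replicate 2 (adjusted p = 0.126), RPE replicate 3 (0.112), t-rRPE replicate 3 (0.0526), rRPE replicate 1 (0.101), rRPE replicate 2 (0.0675) or rRPE replicate 3 (0.0866), while the log2 fold change stayed within -1.98 and -1.63.

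*OTX2* in rRPE had a log2 fold change of -0.73 (SE 0.15, 95% interval -1.05 to -0.41) with an adjusted p of 0.0406. It thus passed the threshold on p and not that on fold change, so it does not count among the called genes. Its libraries lay below all intact libraries, as those of 8.94% of genes did. With any 1 library left out the adjusted p ran from 0.0602 to 0.178.

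The FGF2 bead after the same injury, together with capture close to it, was addressed by rRPE against t-rRPE. This comparison shares its libraries with both comparisons above. *OTX2* fell by 1.10 on the log2 scale (SE 0.15, 95% interval -1.42 to -0.78, adjusted p = 0.0289), or to 0.466 of its level in t-rRPE. Only 9 genes (0.0544%) were called in this comparison, and *OTX2* was one of 2 that were lower in rRPE (0.0121%), the other being *ID2*, which encodes an inhibitor of basic helix-loop-helix factors. Its rRPE libraries lay below all t-rRPE libraries, as those of 5.68% of genes did, and among the well covered genes 1.24% were at least as low. The call did not survive leaving out any of the 9 libraries in turn (adjusted p 0.0678 to 0.13), in fits that called at most 1 gene, while the log2 fold change stayed within -1.17 and -0.96. With only the 6 libraries compared the adjusted p was 0.125.

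For *MITF*, rRPE against t-rRPE gave a log2 fold change of -0.50 (SE 0.28, 95% interval -1.11 to 0.12, adjusted p = 0.626). The 2 groups overlapped, with t-rRPE replicate 1 below rRPE replicate 2. The interval holds both no difference and a fall to 0.464 of the t-rRPE level, so a further fall of *MITF* under FGF2 was not detectable with these 6 embryos.

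**Figure D2:**
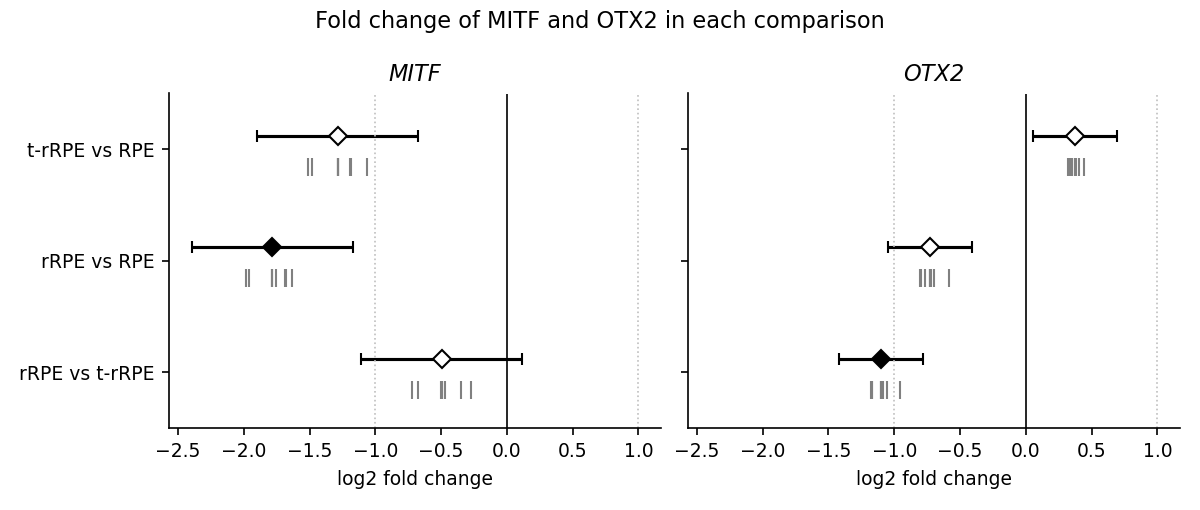
Log2 fold changes of *MITF* (left) and *OTX2* (right) in the 3 pairwise comparisons. Diamonds are limma estimates with 95% intervals, filled where the gene was called, gray ticks are the estimates with 1 library left out, and dotted lines mark the fold threshold of 1: the filled points are *MITF* in rRPE vs RPE (-1.78) and *OTX2* in rRPE vs t-rRPE (-1.10), and the estimates for *OTX2* lie on opposite sides of 0 in t-rRPE and rRPE.

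The mean of both retinectomy groups against RPE averages the changes without and with FGF2, so a call in it need not mean a change in both. *MITF* fell by 1.54 in this comparison (SE 0.24, adjusted p = 0.014), and 0.889% of genes were called, with 0.302% called lower. Its 6 retinectomy libraries lay below all intact ones, a separation shown by 3.3% of genes. The call was lost without RPE replicate 2 (adjusted p = 0.159), RPE replicate 3 (0.147), t-rRPE replicate 3 (0.0842), rRPE replicate 1 (0.0999) or rRPE replicate 3 (0.0837). *OTX2* had a log2 fold change of -0.18 (SE 0.13, adjusted p = 0.606), since its values in t-rRPE and rRPE lay on opposite sides of the intact level.

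The relation of the pair within a library needs no size factor. As a share of the normalized count of *OTX2*, *MITF* came to 27.0, 44.7 and 41.8% among RPE, 8.0, 17.6 and 11.3% among t-rRPE and 15.5, 27.7 and 13.1% among rRPE embryos. These percentages are not corrected for gene length, so only their change between libraries is informative. All t-rRPE libraries were below all intact libraries, whereas rRPE replicate 2 was above RPE replicate 1. The 3 conditions took up 0.726 of the sum of squares of the log2 ratio (exact permutation test, p = 0.025). Leaving out 1 library gave an exact p of 0.0179 to 0.0786, which missed 0.05 without RPE replicate 2 or 3, t-rRPE replicate 1 or 3, or rRPE replicate 1.

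In pairs of groups, the log2 ratio of *MITF* to *OTX2* was lower by 1.66 in t-rRPE than in RPE (exact permutation test, p = 0.1, the smallest that 3 against 3 allows). The log2 ratio differed by -1.05 between rRPE and RPE (exact p = 0.2) and by 0.61 between rRPE and t-rRPE (exact p = 0.3). The lowest ratio was thus in t-rRPE, where *MITF* was low and *OTX2* was not, and the rRPE libraries overlapped with those of both other groups.

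**Figure D3:**
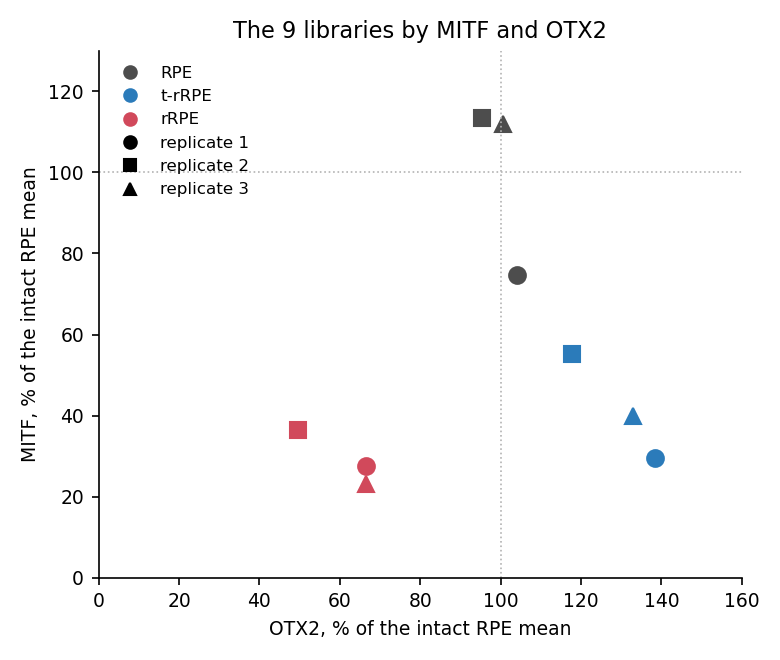
The 9 libraries placed by *OTX2* (x axis) and *MITF* (y axis), each as a percent of its mean in intact RPE, with the replicate number as the shape. The t-rRPE libraries lie low and to the right (group means 129.7% for *OTX2* and 41.6% for *MITF*) and the rRPE libraries low and to the left (60.8% and 29.0%).

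Within each group the pair tended to opposite orders among embryos. *MITF* was highest in replicate 2 of every group, and *OTX2* was lowest in replicate 2 and highest in replicate 1 of every group. The 95% counting intervals overlapped for *MITF* in RPE replicates 2 and 3 (5800.5 to 6068.4 and 5724.7 to 5988.4). They also overlapped for *OTX2* in rRPE replicates 1 and 3 (9083.8 to 9465.2 and 9058.3 to 9441.3), so those ranks are not resolved. The full order of *MITF* (2, 3, 1) was the reverse of that of *OTX2* (1, 3, 2) among the intact and the t-rRPE embryos, while among the rRPE embryos *MITF* followed 2, 1, 3. The labels do not say whether replicate numbers mark a batch, and with 3 embryos a group this order is a description.

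Markers of some other cell types in the captured tissue differed between the groups as well. The 9 endothelial markers found summed to 6546, 11196 and 11479 normalized counts among RPE (replicates 1, 2 and 3), 4219, 3201 and 5568 among t-rRPE and 5037, 4872 and 4741 among rRPE embryos. No library after retinectomy reached the intact range, as for *MITF*, and RPE replicate 1 was the lowest intact library for both. Within the other groups the orders differed, as t-rRPE replicate 2 had the lowest endothelial sum and the highest *MITF*. Among rRPE embryos the endothelial sum was highest in replicate 1 and *MITF* in replicate 2. In t-rRPE 8 of the 9 had a log2 fold change below 0 (median -1.74) and 3 were lower without overlap, beside 7.83% of all genes. In rRPE 6 were below 0 (median -1.57) and 4 lower without overlap, beside 8.94%. *PECAM1* overlapped between all groups (-0.04 and 0.15). Only *CDH5*, the adhesion protein of endothelial junctions, was called, lower in t-rRPE (log2 fold change -2.16, adjusted p = 0.0271) and in rRPE (-2.33, adjusted p = 0.0131). The former call was kept in none of the fits with 1 library left out. Without the trend both calls were lost (adjusted p = 0.0914 and 0.0598), as was the former with only the 6 libraries compared (0.122). No endothelial marker was at 0 in every library of a group.

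The melanoblast markers, of neural crest pigment cells that also express *MITF*, summed to 10862 to 14918 normalized counts in RPE, 13429 to 19444 in t-rRPE and 12821 to 23573 in rRPE, with overlap between all groups. *SOX10* made up most of that sum, and it is also one of the RPE partners listed further on, so the sum is not particular to melanoblasts. None of the 7 measured was called in any comparison. In rRPE against RPE 2 were higher and 1 lower without overlap, beside 9.71 and 8.94% of all genes. The lower one was *MC1R*, and the higher ones were *EDNRB*, an endothelin receptor (914.7, 698.8 and 730.0 normalized counts against 0, 222.9 and 120.6), and *ERBB3*, a neuregulin receptor (147.3 to 315.2 against 17.7 to 38.4). *KIT*, the receptor of migrating melanoblasts, was at 24.0, 75.1 and 26.1 in RPE and at 0 in 1 t-rRPE and 2 rRPE libraries. The sum of lens markers, of a tissue that lies close to the optic cup, was above the intact range in all 6 libraries after retinectomy. It was highest in t-rRPE replicate 2. In t-rRPE 9 of the 13 found were higher without overlap, beside 7.32% of all genes. In rRPE 7 were higher and 1, *PROX1*, was lower, beside 9.71 and 8.94%. The 12 markers of periocular mesenchyme found, none of them called, summed to 12202 to 16205 in RPE, 9672 to 11904 in t-rRPE and 12081 to 14094 in rRPE, so t-rRPE lay below RPE without overlap. In t-rRPE 11 of the 12 had a log2 fold change below 0 (median -2.54). There 7 were lower without overlap, beside 7.83% of all genes. In rRPE 10 were below 0 (median -1.46) and 3 lower without overlap, beside 8.94%, with *PDGFRA* at 0 in every rRPE library. *COL1A2*, the most abundant of the 12, was higher in rRPE without overlap (9012.9 to 9743.2 normalized counts against 5699.5 to 8328.2 in RPE). The 8 erythroid markers found all had a log2 fold change below 0 in t-rRPE (median -0.77), none without overlap and none called. The 13 neural retina markers found summed to overlapping levels in the 3 groups, and none was called. In t-rRPE 10 of them had a log2 fold change below 0 (median -0.52). Of these *HES5* and *ATOH7* were lower without overlap, beside 7.83% of all genes. In rRPE 6 were below 0 (median 0.01), with 1 lower and 3 higher without overlap, beside 8.94 and 9.71%. In rRPE against t-rRPE 9 were above 0 (median 1.04). The part of endothelial, melanoblast, lens, mesenchymal, blood or neural retina cells in the values of *MITF* and *OTX2* was not tested.

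Scaled to the 11 RPE markers of the same library, *MITF* still stood apart in both retinectomy groups, with log2 differences of -1.39 for t-rRPE and -1.55 for rRPE against RPE. The 3 conditions then took up 0.696 of its sum of squares (exact permutation test, p = 0.0429). Of *OTX2*, the 3 conditions took up 0.712 (exact permutation test, p = 0.0286) on this scale. Its t-rRPE and rRPE libraries each overlapped the intact ones, with log2 differences of 0.27 and -0.50, and rRPE stayed apart from t-rRPE (-0.77). The scaling was added after the values had been examined, and MITF itself drives several of the markers. Since the markers are summed, the most abundant of them weigh most in it.

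The closest relatives of the pair were examined next. Of 6 listed paralogs, 4 were measured and none was called in any comparison by limma, edgeR or DESeq2. At most 1 of them was at an unadjusted p under 0.05 in a comparison, beside 9.3 to 13.1% of all genes. *TFEC*, a relative of *MITF* that is known from the mouse RPE, was at 362.3, 1390.6 and 580.2 normalized counts among RPE, 730.3, 1014.4 and 1161.3 among t-rRPE and 496.4, 548.4 and 418.9 among rRPE embryos. All its t-rRPE libraries were above all rRPE libraries (log2 fold change -0.97, adjusted p = 0.555), as for *OTX2*. *TFEB*, which drives lysosomal genes, overlapped between all groups.

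*OTX1*, the paralog of *OTX2* that shares its role in the early RPE, was at 953.3, 651.5 and 627.0 among RPE, 492.6, 1032.2 and 666.0 among t-rRPE and 294.4, 385.4 and 458.9 among rRPE embryos. Its rRPE libraries were below all others, with a log2 fold change of -0.97 against RPE (adjusted p = 0.341). *OTX5*, the chick gene of the CRX type that is known from photoreceptor and pineal cells, was higher in every library after retinectomy, at 64.1 to 76.1 in RPE, 118.5 to 232.0 in t-rRPE and 122.8 to 164.3 in rRPE. Its log2 fold changes of 1.34 and 1.01 had adjusted p values of 0.437 and 0.624. In rRPE against t-rRPE all 4 paralogs had a log2 fold change below 0, with a median of -0.79 where the median of all genes was 0.

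Of 19 measured partners, genes whose products act with or upstream of the pair in the RPE, none was called in any comparison by limma or edgeR, with 4 to 6 of them at an unadjusted p under 0.05, beside 9.3 to 13.1% of all genes. DESeq2 called only *PAX2*, in t-rRPE against both other groups. Median log2 fold changes were -0.08 in t-rRPE and -0.13 in rRPE against RPE, beside 0 for all genes. *SOX9*, which acts with OTX2 and MITF on genes of the visual cycle, was at 4418 to 5272 normalized counts in RPE, 3188 to 6127 in t-rRPE and 2001 to 2927 in rRPE. Its rRPE values were below those of both other groups, with -0.90 on the log2 scale against RPE (adjusted p = 0.13). *TFAP2A*, needed in the mouse for the dorsal optic cup to become RPE, was at 167.2, 152.5 and 141.4 among RPE, 0, 40.1 and 0 among t-rRPE and 17.3, 43.9 and 0 among rRPE embryos, without overlap with RPE and without a call. *LHX2*, which is needed for *MITF* in the mouse optic vesicle, was at 2039 to 3180 in RPE and 3331 to 3932 in rRPE (log2 fold change 0.59, adjusted p = 0.31). *PAX6*, which acts with MITF in the RPE and with other factors in the neural retina, overlapped between all groups.

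Pigment genes that MITF and OTX2 are known to drive formed another list. Of 23 measured, limma called 1 higher in t-rRPE, 1 lower in rRPE and none between rRPE and t-rRPE. Of all genes, limma called 0.671, 1.03 and 0.0544% there. edgeR called 1, 1 and 0 of the 23, beside 48, 101 and 6 of the 16535 genes. DESeq2 called *MC1R* and *TRPM3* in t-rRPE, *GPNMB*, *GPR143*, *MREG* and *RAB27A* in rRPE, and *GPR143* and *TRPM1* between them. Of all genes, DESeq2 called 503, 569 and 235 in the same order. At an unadjusted p under 0.05 there were 7 in t-rRPE, 12 in rRPE and 8 between them, beside 12.4, 12.0 and 9.3% of all genes. The median log2 fold change was 0.04 in t-rRPE and -0.41 in both rRPE comparisons. In rRPE against RPE, 17 of the 23 were below 0. There 7 were lower and 5 higher without overlap, beside 8.94 and 9.71% of all genes. In t-rRPE against RPE 11 were below 0, with 2 lower and 3 higher without overlap, beside 7.83 and 7.32% of all genes. No set test was run on these counts.

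Among them, *RAB27A*, which tethers melanosomes for transport, was at 8809, 8740 and 9261 normalized counts among RPE, 4921, 7954 and 6582 among t-rRPE and 4124, 3567 and 4446 among rRPE embryos. The 3 groups did not overlap, and it fell by 1.15 on the log2 scale in rRPE (SE 0.18, adjusted p = 0.0156), against -0.49 in t-rRPE (adjusted p = 0.319). *TRPM3*, an ion channel gene whose intron holds a microRNA of the RPE, was at 2617, 2866 and 2301 among RPE, 6440, 9155 and 9508 among t-rRPE and 5125, 3504 and 6282 among rRPE embryos. It rose by 1.67 in t-rRPE (adjusted p = 0.0123), and in rRPE its log2 fold change was 0.90 (adjusted p = 0.104). Each of these calls was kept in 3 of the 9 fits with 1 library left out. Without the trend neither was kept (adjusted p = 0.143 for *RAB27A* and 0.0996 for *TRPM3*), nor was that of *TRPM3* with only the 6 libraries compared (0.0572).

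The enzymes of melanin synthesis kept or exceeded their intact range in part of the libraries. *TYR*, the rate-limiting enzyme, was at 63704 to 87215 normalized counts in RPE, 62862 to 70660 in t-rRPE and 47336 to 71888 in rRPE. *DCT* overlapped between all groups too. *TYRP1* was higher in every library after retinectomy, at 39826 to 75902 in t-rRPE and 36034 to 60663 in rRPE against 30458 to 33618 in RPE. Its log2 fold changes were 0.79 and 0.46 (adjusted p = 0.204 and 0.481). *GPR143*, a receptor that controls melanosome size, was lower in every rRPE library, at 2307 to 6702 against 11214 to 13431 in RPE (-1.55, adjusted p = 0.0592, and 0.0482 after quantile normalization). *OCA2*, a melanosomal transporter, likewise lay at 2976 to 3815 against 5534 to 6585 (-0.87, adjusted p = 0.0669). *GPNMB*, a melanosome glycoprotein, was higher in every rRPE library, at 8982 to 20199 against 2315 to 6318 (1.84, adjusted p = 0.0787). *MC1R*, the melanocortin receptor, was at 556.9 to 722.7 in RPE, 73.8 to 241.7 in t-rRPE and 146.2 to 313.1 in rRPE (-2.20 and -1.52, adjusted p = 0.136 and 0.285).

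**Figure D4:**
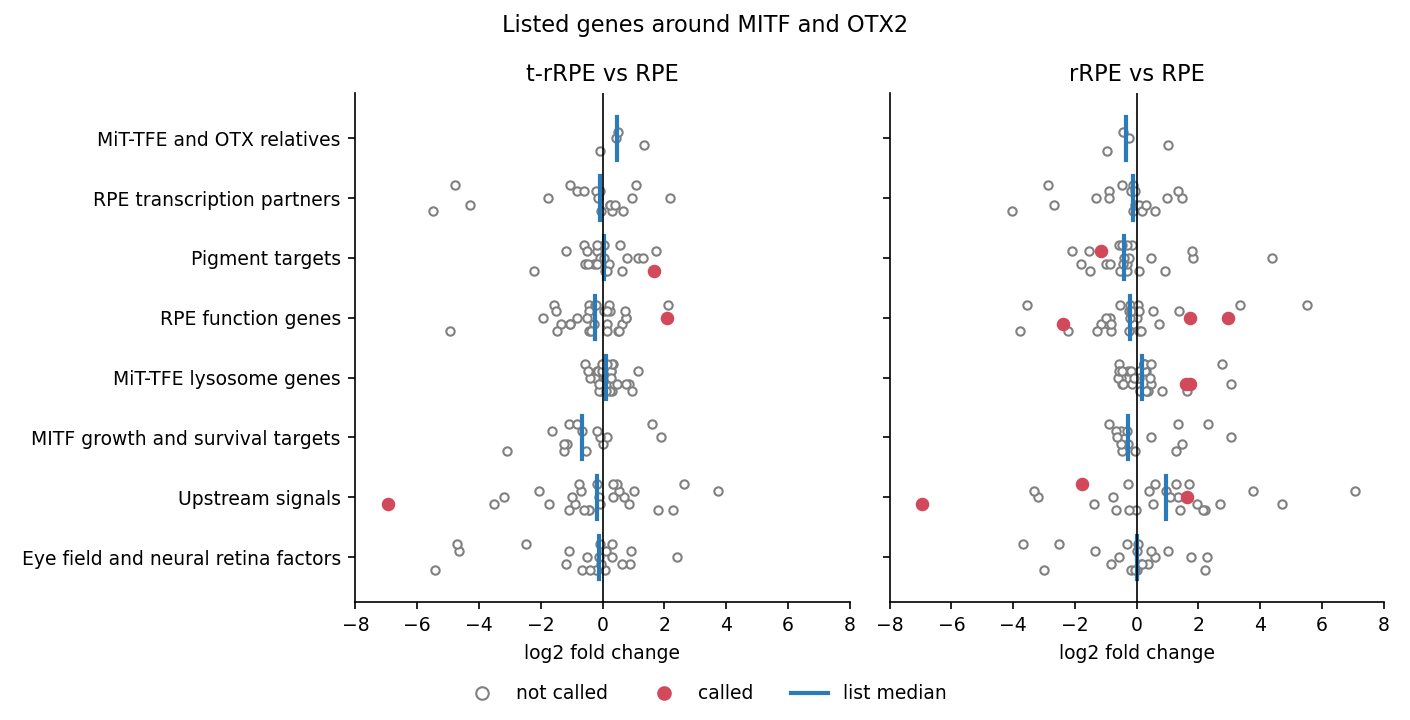
Log2 fold changes of the measured genes of 8 lists in t-rRPE (left) and rRPE (right) against intact RPE. Each circle is 1 gene, filled where called, the vertical position within a list only keeps circles apart, and blue bars are list medians: the pigment targets had a median of 0.04 in t-rRPE and -0.41 in rRPE, and the upstream signals -0.19 and 0.96.

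Of 31 measured genes of RPE function, limma called 1 higher in t-rRPE, and 2 higher and 1 lower in rRPE, beside 0.671 and 1.03% of all genes. edgeR called 1 and 2 of them, beside 48 and 101 of the 16535 genes. DESeq2 called 1 and 4 of them, beside 503 and 569 of all genes, *RGR* being the one added in rRPE. *STRA6*, the receptor that takes up vitamin A from its carrier, rose in both, from 3081 to 4403 normalized counts in RPE to 12667 to 19234 in t-rRPE (log2 fold change 2.08, adjusted p = 0.00203) and 10603 to 14390 in rRPE (1.73, adjusted p = 0.00308). *EZR*, which links apical membrane to actin, rose by 2.96 in rRPE (adjusted p = 0.0117), from 354.3 to 979.2 in RPE to 4999 to 6370. *SLC6A13*, a transporter of GABA and taurine, fell by 2.38 in rRPE (adjusted p = 0.0449), from 861.0 to 1236 in RPE to 167.5 to 274.1. Its call was lost under edgeR (adjusted p = 0.0739), with the replicate block (0.0691) and without the trend (0.128). *RDH10*, a retinol dehydrogenase, shared the order of *OTX2*, at 54289 to 64331 in RPE, 58593 to 71772 in t-rRPE and 24452 to 44686 in rRPE, although its t-rRPE and RPE groups overlapped and it was not called. With 1 library left out, the calls of *STRA6* were each kept in 5 of 9 fits, and those of *EZR* and *SLC6A13* in 2 of 9. The call of *STRA6* in t-rRPE was lost with only the 6 libraries compared (adjusted p = 0.0563) and that in rRPE without the trend (0.0563), and that of *EZR* under both settings (0.056 and 0.086).

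Lysosomal genes, which MITF and its relatives are known to drive in other cells, were called higher in rRPE for 2 of 34 measured. In rRPE 1.03% of all genes were called in either direction. None of the list was called in the other pairwise comparisons. There 4 and 5 were at an unadjusted p under 0.05, beside 12.4 and 9.3% of all genes. DESeq2 called the same 2 in rRPE and *SQSTM1* against t-rRPE too, beside 569 and 235 of the 16535 genes. *SQSTM1*, an autophagy receptor, rose from 931.3 to 2091 normalized counts in RPE to 3708 to 5820 in rRPE (log2 fold change 1.73, adjusted p = 0.0198). Its call was kept in 1 of the 9 fits with 1 library left out, and neither without the trend (adjusted p = 0.12) nor with only the 6 libraries compared (0.111). The list medians were 0.13 in t-rRPE and 0.18 in rRPE, with *MITF* low in both groups. Of 15 growth and survival genes that MITF is known to drive in melanocytes, none was called by limma, edgeR or DESeq2. At most 2 were at an unadjusted p under 0.05 in a comparison, beside 9.3 to 13.1% of all genes. Their medians were -0.67 in t-rRPE and -0.28 in rRPE.

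Among 27 measured signals that act on *MITF* or *OTX2* in the optic vesicle, limma called 1 lower in t-rRPE. In rRPE limma called 1 higher and 2 lower. Of all genes, limma called 0.671% in t-rRPE and 1.03% in rRPE. edgeR called 0 and 2 of the signals, beside 48 and 101 of the 16535 genes. DESeq2 called 6 and 9 of them, beside 503 and 569 of all genes. *FGFR1*, a receptor for FGF2, was at 10876, 7240 and 7560 normalized counts among RPE, 11184, 8317 and 13339 among t-rRPE and 23740, 27434 and 26252 among rRPE embryos. It rose by 1.62 in rRPE (adjusted p = 0.00377), without overlap with either other group. *FGFR3*, another FGF receptor, was at 12452, 17719 and 16780 among RPE, 10226, 9462 and 7643 among t-rRPE and 3634, 4350 and 5896 among rRPE embryos. It fell by 1.77 in rRPE (adjusted p = 0.00315), and its 3 groups did not overlap. *FGF8*, a ligand of the neural retina side of the optic vesicle, was at 212.4, 119.7 and 70.7 in RPE and held no read in any of the 6 libraries after retinectomy. Against a floor of 3 reads per library, it was at least 34.3-fold lower in t-rRPE and at least 42.8-fold lower in rRPE (adjusted p = 0.028 and 0.0196). The calls of *FGF8* were lost under edgeR (adjusted p = 0.181 and 0.135), and that in t-rRPE also with the replicate block (0.0632) and with only the 6 libraries compared (0.0563). Without the trend the calls of *FGFR1* (0.0735) and *FGFR3* (0.0586) were lost. With 1 library left out, the call of *FGF8* was kept in 4 of 9 fits in t-rRPE and in 6 in rRPE. That of *FGFR1* in rRPE was kept in 4 and that of *FGFR3* in 5.

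Genes that report FGF and MAPK signaling were not called by edgeR, nor by limma over the 9 libraries. With only the 6 libraries compared, limma called *ETV4* (adjusted p = 0.0117) and *SPRY1* (0.0392) in rRPE against RPE, and without t-rRPE replicate 2 it called *ETV4* (0.00959), *SPRY1* (0.0221) and *DUSP6* (0.0301). DESeq2 called *ETV4*, *SPRY1* and *SPRY4* there, *SPRY4* in t-rRPE against RPE and *SPRY2* in rRPE against t-rRPE. Of the 27 signals, 13 were higher without overlap in rRPE than in RPE, beside 9.71% of all genes. *SPRY2*, a feedback inhibitor of receptor tyrosine kinases, was at 566.0, 680.5 and 524.1 normalized counts among RPE, 262.6, 208.1 and 483.6 among t-rRPE and 744.2, 1691 and 1540 among rRPE embryos. It thus took the order opposite to that of *OTX2*, with rRPE above RPE above t-rRPE, and its log2 fold change in rRPE against t-rRPE was 2.06 (adjusted p = 0.167). *ETV4*, an effector of FGF signaling, was at 2013 to 2846 in rRPE and 127.5 to 226.8 in RPE (3.76, adjusted p = 0.0814). *DUSP6*, a phosphatase that limits ERK, was at 3890 to 7597 in rRPE and 838.5 to 1548 in RPE (2.21, adjusted p = 0.304). In t-rRPE these reporters varied between embryos, with *ETV4* at 906.1, 49.5 and 909.8, *DUSP6* at 1863, 131.6 and 2104, and *SPRY1* at 796.5, 36.4 and 628.2. The t-rRPE replicate that was low in all 3, replicate 2, was the t-rRPE library with the highest *MITF* and the lowest *OTX2*. Replicate 2 had the highest *MITF* and the lowest *OTX2* in the other groups too, although its *MITF* rank in RPE was within counting error. Among rRPE embryos it was instead the highest in all 3 reporters, with *ETV4* at 2846, *DUSP6* at 7597 and *SPRY1* at 2254.

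*BMP4* and *BMP7*, ligands that promote RPE specification in the chick, were higher in every rRPE library than in RPE (log2 fold changes 1.35 and 0.96, adjusted p = 0.233 and 0.153) and overlapped with RPE in t-rRPE. *INHBA*, which encodes an activin subunit, was at 18.3, 8.6 and 3.1 normalized counts in RPE and at 0 in all 6 libraries after retinectomy, without a call. *TGFB2*, a growth factor of the transforming growth factor beta family, was called in the mean of both retinectomy groups (2.21, adjusted p = 0.0306), from 142.2 to 342.1 in RPE to 724.8 to 1882 after retinectomy. That call was lost under edgeR (adjusted p = 0.0605), without the trend (0.117) and with any 1 library left out.

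Of 21 measured factors of the eye field and neural retina, none was called in any comparison by limma or edgeR, with 3 to 5 at an unadjusted p under 0.05, beside 9.3 to 13.1% of all genes. DESeq2 called *SIX3* lower in t-rRPE and *SIX6* higher in rRPE than in t-rRPE. *SIX6*, a homeobox gene of retinal progenitors, was higher in every rRPE library, at 1269 to 2898 normalized counts against 307.4 to 922.5 in RPE (1.76, adjusted p = 0.218). *SIX3*, its relative of the early eye field, was lower in every library after retinectomy, at 3839 to 4790 in RPE, 1482 to 2517 in t-rRPE (-1.20, adjusted p = 0.0765) and 1728 to 2984 in rRPE (-0.84, adjusted p = 0.186). The list medians were -0.11 in t-rRPE and 0.01 in rRPE.

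The genes most like each of the pair were sought over all 9 libraries among 9057 genes with a symbol and a mean of at least 100 normalized counts, by the root mean square difference of log2(normalized count + 1) after subtracting each gene's mean. Nearest to *MITF* were *ETS1* (0.232), *NKAIN2* (0.239), *COLEC12* (0.331), *NOS3* (0.349), *APLN* (0.36) and *PCNT* (0.371), where the median over all genes compared was 0.93. *ETS1*, *NOS3* and *APLN* are known from vascular endothelium, *COLEC12* is a scavenger receptor that is also found there, and *PCNT* encodes a centrosomal scaffold. *ETS1*, the nearest, was at 1184.9 to 2236.1 normalized counts in RPE, 411.2 to 609.4 in t-rRPE and 321.4 to 553.6 in rRPE.

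Nearest to *OTX2* were *ATG5* (0.168), *FAM206A* (0.169), *GALNT11* (0.173), *RDH10* (0.18), *MRAS* (0.219) and *BDH2* (0.225), where the median was 0.653. *ATG5* is a core autophagy factor, *GALNT11* adds sugars to proteins, *MRAS* is a small GTPase and *BDH2* is a dehydrogenase. *ATG5*, the nearest, was at 1804.7 to 1964.9 normalized counts in RPE, 2636.7 to 2748.5 in t-rRPE and 1088.4 to 1757.7 in rRPE, without overlap between groups. The distance between *MITF* and *OTX2* was 0.805. These profiles share the same 9 libraries and size factors, so the likeness is a description, with no test and nothing said of shared control.

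**Figure D5:**
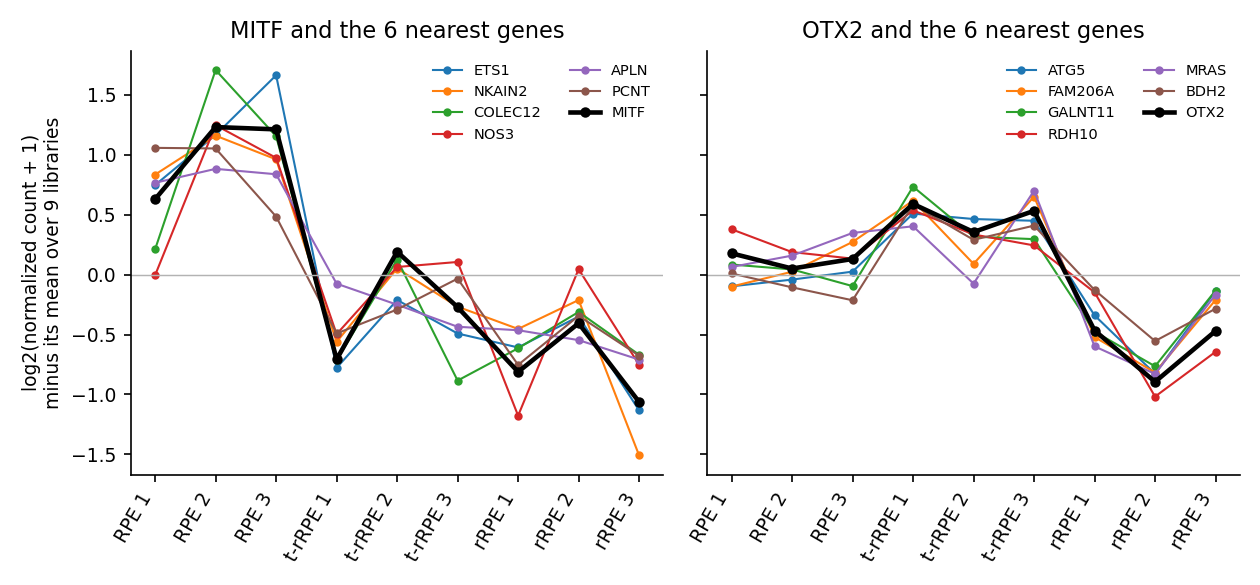
Centered log2(normalized count + 1) of *MITF* (left) and *OTX2* (right), in black, with the 6 genes nearest to each, across the 9 libraries. The genes were picked for this likeness. Those near *MITF* had lower group means in t-rRPE and rRPE than in RPE, although *NOS3* overlapped between the groups. Those near *OTX2* had their highest mean in t-rRPE and their lowest in rRPE (*ATG5* at 2636.7 to 2748.5 and 1088.4 to 1757.7 normalized counts). Several of the latter overlapped with RPE in t-rRPE or rRPE.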

How the data were processed

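Poly-A RNA from the RPE of 9 embryos, captured by laser, was analyzed. The authors trimmed, aligned (STAR, chicken build GRCg6a) and counted the reads over genes (StringTie), and the deposited signal is the count divided by a DESeq2 size factor. Every value was a whole multiple of 1 read (0.768 to 1.303 normalized counts, tolerance 0.001), so whole reads were recovered. For 16535 genes with a summed value of at least 20 (100 were left out), log2(normalized count + 1) was fitted with limma 3.58.1 (trend, 1 model of 9 libraries, Benjamini-Hochberg). The offset understates changes of low genes. Exact permutation tests over libraries were two-sided for pairs. edgeR 4.0.16 and DESeq2 1.42.0 on recovered reads, offsets, filters, scalings, a replicate block and omission of each library were alternatives. DESeq2 fold changes were not shrunk here, whereas the paper applied apeglm shrinkage to its own. The DESeq2 calls given here are therefore not those of the paper. Intervals of reads cover counting error only.

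The members and the gene lists were chosen with earlier results of these data known. Genes named are *MITF*, *OTX2*, list genes called in a comparison, then list genes with large changes, and the 6 genes nearest to each member. Further list genes, among them *TYR*, *SPRY2* and *LHX2*, were named for their roles after their values had been seen, as was *ID2*, the other gene called lower between rRPE and t-rRPE. A called list gene is not reported here by name. Sequences and coordinates were not analysed here.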

Additional observations from a re-analysis of the deposited data

Results flagged for a closer look

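*OTX2* drew attention because all 3 t-rRPE libraries were above and all 3 rRPE libraries below the intact range. Its difference between rRPE and t-rRPE was -1.10 on the log2 scale (adjusted p = 0.0289 by limma), a call that was lost with any 1 of the 9 libraries left out (0.0678 to 0.13), without the trend (0.22) and with only the 6 libraries compared (0.125). *SPRY2*, a feedback inhibitor of FGF signaling, was singled out because every t-rRPE library was below and every rRPE library above the intact range, a log2 difference of 2.06 (adjusted p = 0.167). Both share the intact libraries between their comparisons. No group had more than 3 libraries, so single libraries were not examined for outlying values by a test.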

How the results depend on the processing

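Log2 fold changes of *MITF* and *OTX2* kept their direction in all 21 alternative fits of each pairwise comparison. *MITF* was called in t-rRPE by DESeq2 (-1.27). Without the trend, *MITF* in rRPE (-1.78, adjusted p = 0.101) and in the retinectomy mean (-1.54, adjusted p = 0.103) and *OTX2* in rRPE against t-rRPE (-1.10, adjusted p = 0.22) were not called, nor was the last with only the 6 libraries compared (-1.10, adjusted p = 0.125). With 1 library left out these 3 changes ran from -1.98 to -1.63, from -1.73 to -1.42 and from -1.17 to -0.96, and the share of the *MITF* to *OTX2* ratio from 0.652 to 0.822.

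Genes called in t-rRPE against RPE numbered 111, beside 73 without the trend, 0 with 6 libraries, 64 with the replicate block, 48 by edgeR, 503 by DESeq2 and 0 to 109 with 1 library left out. Those in rRPE against RPE numbered 170, beside 71, 101 (edgeR), 569 (DESeq2) and 0 to 187. In rRPE against t-rRPE they numbered 9, beside 31 without the trend, 0 with 6 libraries, 235 by DESeq2 and 0 to 1. Fits with 0 calls had 1065 to 1861 genes at an unadjusted p under 0.05. For the retinectomy mean the number was 147, beside 83, 84, 600 and 34 to 162. The causes of these shifts were not tested. The labels do not say whether replicate numbers mark a batch. Deviations from the group means correlated at -0.039 to 0.069 between libraries with the same number. Between libraries with different numbers they correlated at -0.075 to 0.032. The replicate block changed no call of *MITF* or *OTX2* (*OTX2* in rRPE against t-rRPE, adjusted p = 0.0317). The 44 fold changes of listed genes that were recomputed kept their direction in all settings. Counting error was below the spread between libraries for both genes.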
